A study of Drosophila melanogaster with 2 samples.

Results

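Mediator and Integrator are large complexes that act on RNA polymerase II, and the genes of their subunits were examined here for promoter peaks of CG7987, a Drosophila protein named in the labels only by its gene number. The members were the protein-coding genes whose symbol is MED or IntS followed by a number, with kto, skd, CycC and Cdk8, which form the kinase module of Mediator. The rule found 40 of 13945 protein-coding genes on the 6 chromosome arms, 29 for Mediator and 11 for Integrator. Subunits under other symbols (ix in Mediator; omd, defl and asun in Integrator) fell outside it. The study consists of 1 group of 2 biological replicates, assayed by chromatin immunoprecipitation with sequencing (ChIP-seq), with no other condition to compare. Both were whole Drosophila melanogaster embryos aged 0 to 24 h, with both sexes pooled, from a transgenic line that stably expresses CG7987 with GFP at its C-terminal end. The labels do not give the promoter of the fusion or the cells that carry it. Each value thus pools whichever embryonic cells and stages carried the fusion. The assay and antibody labels call the libraries ChIP of CG7987, whereas a line of free text calls them its input control. They were treated as ChIP, which none of the values tests.

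A peak's summit is its highest point, and a gene was given a summit when it lay within 500 bp of any annotated transcription start site (TSS) of that gene. The pooled candidate list holds 30000 peaks called on both replicates together and is named by the authors as peaks and background. The IDR list, kept by the irreproducible discovery rate, holds the 4410 strongest of them by the authors' own signal value. The sources used here do not give the scale of that signal, so signals and ranks (1 is the strongest) are compared within a list only. A member's value in a list is that of its strongest summit in the window, which need not be at the same base in each list. Each candidate list has a set length of 30000, and read depth is unknown, so neither says how much was bound. With 1 group there was no contrast and no p-value. Exact Clopper-Pearson 95% intervals cover counting error only, and neighbouring genes that share a summit are not independent.

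Mediator is a coactivator that links transcription factors bound at enhancers and promoters to RNA polymerase II. Its head and middle modules contact the polymerase, its tail contacts activators, MED14 is the scaffold that joins them, and the kinase module binds reversibly. Integrator binds paused polymerase and carries an RNA endonuclease, which cleaves nascent RNA and forms the 3′ ends of small nuclear RNAs, and a phosphatase arm that recruits protein phosphatase PP2A. Both are general factors in the transcription of protein-coding genes, and subunits of each are conserved between flies and mammals.

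Of the 9 member IDR summits that hold at least 1 of 8 searched words, the sequences at the 6 with the highest signal are printed so that they can be compared by their letters. They were read from the RefSeq genome of dm6 (Release 6), 5′ to 3′ on the strand of the member gene, and capitals mark matches to a searched word on either strand. The stretches reach 50 bp to either side of the summit and leave out annotated exon bases, except for MED19, where the first 25 transcribed bases around the word are given. They lie at chr3L:654250-654350 (minus strand) for MED30, chr3R:18188984-18189071 (plus strand) for MED17, chr3L:7250574-7250639 (minus strand) for MED4, chr3R:29745137-29745208 (plus strand) for IntS11, chr3R:20008532-20008632 (plus strand) for MED25 and chr3L:17846477-17846501 (minus strand) for MED19.
MED30: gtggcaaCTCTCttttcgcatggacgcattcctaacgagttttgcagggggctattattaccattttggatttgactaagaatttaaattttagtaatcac
MED17: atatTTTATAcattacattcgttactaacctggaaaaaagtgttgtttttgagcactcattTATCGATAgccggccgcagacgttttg
MED4: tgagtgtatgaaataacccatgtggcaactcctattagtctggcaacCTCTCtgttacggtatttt
IntS11: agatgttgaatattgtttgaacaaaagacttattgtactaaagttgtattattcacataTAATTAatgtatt
MED25: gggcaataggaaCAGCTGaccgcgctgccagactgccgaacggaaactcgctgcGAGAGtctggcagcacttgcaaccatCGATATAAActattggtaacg
MED19: cgcaatgcGGTCACACTggttcgcg

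The strongest member summit, at MED30, held only the short word GAGAG, which belongs to the site of GAGA factor and reads CTCTC on the printed strand. The same word was present at MED4. MED17 held TATCGATA, the DNA replication-related element read by Dref, and TATAAA, the letters of a TATA box, which read TTTATA on the printed strand; the match lay 82 bp upstream of the MED17 TSS and on the opposite strand, so its place and direction are not those of a TATA box of MED17. MED19 held GGTCACACT, a core promoter word read by M1BP. At MED25 the words CGATA and TATAAA overlapped. IntS11 held TAATTA, a core word of homeodomain proteins.

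Promoters of the 2 complexes had summits at similar rates, and both rates were higher than the share of all protein-coding genes. An IDR summit was found at 10 of 29 Mediator genes, 34.5% (interval 17.9 to 54.3%), and at 4 of 11 Integrator genes, 36.4% (10.9 to 69.2%). Over all 13945 protein-coding genes the share was 20.5%. For all 40 members together it was 14 genes, 35% (20.6 to 51.7%), where the share of all genes would give 8.20. The interval for the 40 members begins just above the share of all genes, and that of each complex alone includes it. A pooled candidate summit was found at 32 members, 80% (64.4 to 90.9%), with 23 in Mediator and 9 in Integrator, against 55.4% of all protein-coding genes. With each gene ranked by its strongest pooled candidate and genes without one placed last, the median rank was 7179 for members and 20746 for all protein-coding genes. The median IDR signal was 206 over the 14 members and 207 over the 2857 protein-coding genes with an IDR summit.

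**Figure D1:**
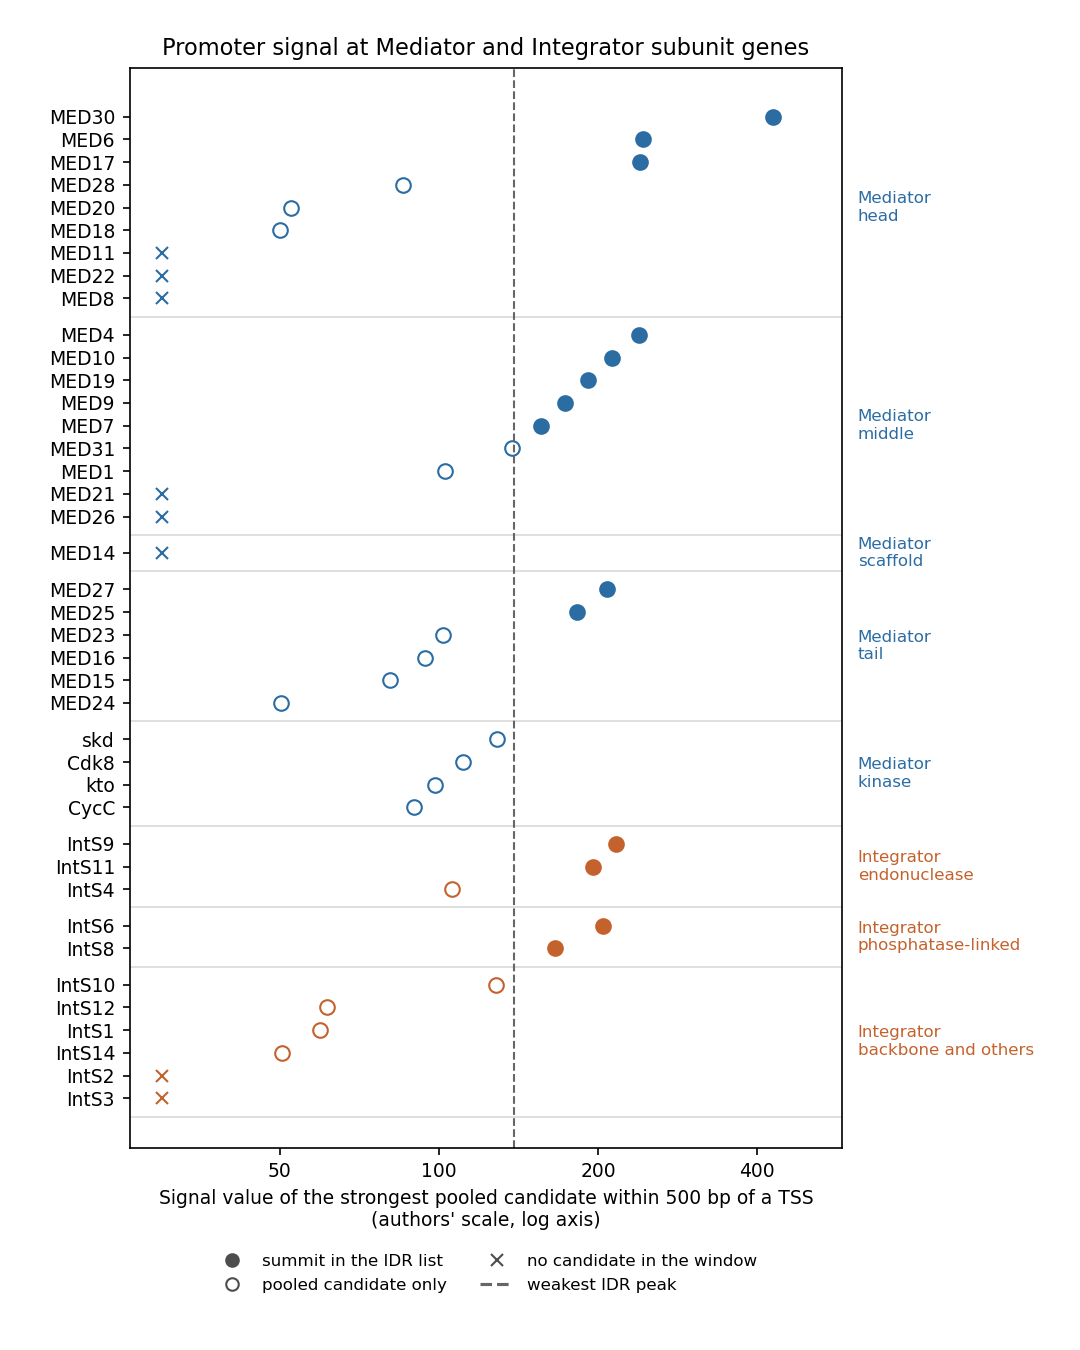
Signal of the strongest pooled candidate summit within 500 bp of a TSS (horizontal log axis, authors' scale) for each of the 40 members, grouped by module, with Mediator in blue and Integrator in orange. Filled points have an IDR summit, open points are pooled candidates only, crosses at the left edge mark 8 members with no candidate in the window, and the dashed line is the weakest IDR peak at 139; the 14 filled points run between 156 and 428.

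The members' genes were more often arranged in divergent pairs than protein-coding genes as a whole. A divergent coding neighbour, a protein-coding gene on the other strand that starts within 1000 bp and points away, was present at 29 of 40 members (72.5%) and at 5052 of 13945 protein-coding genes (36.2%). Among genes with such a neighbour, 12 of 29 members had an IDR summit (41.4%, interval 23.5 to 61.1%), against 32.5% of protein-coding genes. Among genes without one it was 2 of 11 members (18.2%, 2.28 to 51.8%), against 13.6%. Those 2 shares of all genes applied to the members would give 10.9 of 40 genes, between the 14 seen and the 8.20 given by the share of all genes. For pooled candidates the counts were 26 of 29 members against 77.5%, and 6 of 11 members against 42.8%. In each of these pairs the interval for the members includes the share of all genes of the same arrangement.

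**Figure D2:**
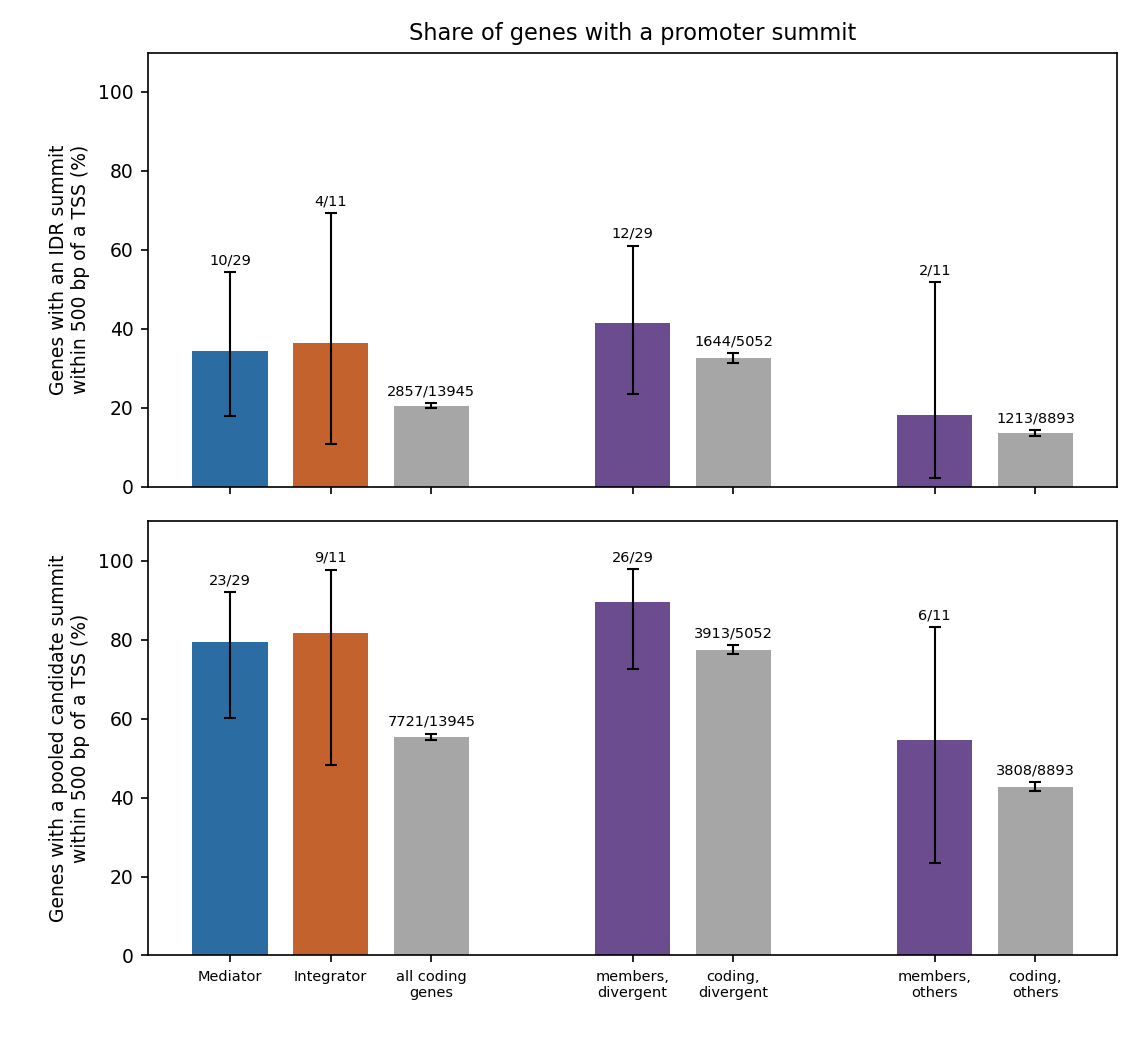
Percentage of genes with an IDR summit (upper panel) or a pooled candidate summit (lower panel) within 500 bp of a TSS; bars are shares, error bars are exact Clopper-Pearson 95% intervals and the numbers are genes with a summit over genes in the set. Members are in colour and protein-coding genes in grey, and "divergent" and "others" are genes with and without a divergent coding neighbour. The IDR shares were 41.4% of members and 32.5% of coding genes with such a neighbour.

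In the head of Mediator, IDR summits were found at 3 of 9 genes (33.3%, interval 7.49 to 70.1%, against 20.5% of all protein-coding genes), MED30, MED6 and MED17. MED30, a head subunit present in animals but not in budding yeast (3L, 652987 to 654089, minus strand), had the strongest summit of all members. Its signal was 106 in replicate 1 (rank 903), 345 in replicate 2 (rank 322) and 428 in the pooled list (rank 444), at 211 bp upstream of its TSS. The summit lay nearer to Rev1, which encodes a translesion DNA polymerase and starts 63 bp away on the other strand. MED6, a conserved head subunit (3R, 9766031 to 9768984, minus strand), had signals of 113 in replicate 1 (rank 777), 131 in replicate 2 (rank 2495) and 243 in the pooled list (rank 1493). Its summit lay 5 bp downstream of a TSS that is inside the annotated gene and 24 bp from the TSS of Naa80. MED17, the central subunit of the head (3R, 18189072 to 18191265, plus strand), had signals of 50.2 in replicate 1 (rank 4314), 179 in replicate 2 (rank 1336) and 240.2 in the pooled list (rank 1525), 38 bp upstream of its TSS. The replicate 2 value is from a candidate 224 bp upstream, and the one nearest to the IDR summit, 24 bp upstream, had a signal of 159 (rank 1746). MED17 and MED6 thus had nearly equal pooled signals, while MED6 ranked higher in replicate 1 and MED17 in replicate 2.

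The other head genes were weaker. MED28, MED20 and MED18 had pooled candidates only, with signals of 85.5, 52.6 and 50.03, and MED8, MED11 and MED22 had none in the window. MED20 is paired with Trf, a TBP-related factor gene, and the MED20 candidate lay 22 bp from the Trf TSS and 69 bp from that of MED20. The MED18 candidate lay 1 bp from the TSS of Gcna.

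The middle module had IDR summits at 5 of 9 genes, 55.6% (interval 21.2 to 86.3%), against 20.5% of all protein-coding genes. MED4 (3L, 7249529 to 7250527, minus strand) had signals of 52.4 in replicate 1 (rank 4027), 194 in replicate 2 (rank 1133) and 239 in the pooled list (rank 1535), 97 bp upstream of its TSS. Its only neighbour in the window was a noncoding gene, asRNA:CR43470, which starts 16 bp from the summit. MED10 (3L, 16232084 to 16232777, plus strand) had signals of 75.1 in replicate 1 (rank 1921), 140.05 in replicate 2 (rank 2208) and 213 in the pooled list (rank 1975), 4 bp upstream of its TSS and 42 bp from that of PDCD-5. Both genes encode structural subunits of the middle module, and both had a candidate among the first 4410 in either replicate.

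MED19 (3L, 17843725 to 17846501, minus strand), had signals of 78.9 in replicate 1 (rank 1711), 103 in replicate 2 (rank 3903) and 192 in the pooled list (rank 2417), 40 bp downstream of its TSS. MED9 (2R, 18167255 to 18168380, plus strand) had signals of 36.3 in replicate 1 (rank 7618), 140.0 in replicate 2 (rank 2211) and 173 in the pooled list (rank 2970), 21 bp upstream of its TSS. MED9 shares that TSS with CG42518, which has another start 28 bp upstream of it, 7 bp from the summit. Nup75, a nuclear pore gene, starts 94 bp from the summit on the other strand. MED7 (3R, 10760071 to 10761032, minus strand) had the lowest signal when each member is taken by its strongest IDR summit, 156 in the pooled list (rank 3583), 38 bp upstream of its TSS and 240 bp from that of Cap-H2, a condensin II subunit gene. Its signal was 17.8 in replicate 1 (rank 24022) and 109 in replicate 2 (rank 3526), so its place rested on replicate 2. MED31 and MED1 had pooled candidates only, with signals of 138 and 103, and MED21 and MED26 had none in the window. MED31 is the member just below the end of the IDR list, at rank 4459, where the weakest IDR peak had a signal of 139, and it shares its TSS with slx1.

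The tail had IDR summits at 2 of 6 genes (33.3%, interval 4.33 to 77.7%, against 20.5% of all protein-coding genes) and pooled candidates at 6 of 6 (against 55.4%). MED27 (3R, 5655139 to 5656336, plus strand) was the only member with 2 IDR summits, of signal 208 (rank 2076) at 285 bp and 146 at 83 bp upstream of its TSS. The stronger lay 7 bp from the TSS of elm. The strongest candidate in the window had a signal of 85.5 in replicate 1 (rank 1463, 362 bp upstream) and 147 in replicate 2 (rank 2010, 169 bp upstream), so its position moved between the lists. MED25, a subunit that activators contact in mammals (3R, 20008947 to 20011712, plus strand), had signals of 68.1 in replicate 1 (rank 2365), 162 in replicate 2 (rank 1666) and 182 in the pooled list (rank 2684). Among the 14 members its strongest IDR summit was the farthest from its own TSS, 365 bp upstream, and lay 70 bp from the TSS of Hs6st, a heparan sulfate sulfotransferase gene. A further pooled candidate lay 93 bp upstream of the MED25 TSS, with a signal of 135 (rank 4621), just below the weakest IDR peak at 139. The other tail genes, MED23, MED16, MED15 and MED24, had pooled candidates of signal 102, 94.3, 80.8 and 50.4.

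The scaffold gene MED14 and the kinase module had no IDR summit in the window. MED14 had no pooled candidate either, and a candidate of signal 23.0 (rank 15955) in replicate 1 only. All 4 kinase module genes had a pooled candidate, with signals of 129 at skd (Med13), 111 at the kinase gene Cdk8, 98.3 at kto (Med12) and 89.7 at CycC (the cyclin partner of Cdk8). For 4 genes a count of 0 leaves an interval of 0 to 60.2%, so it was not separable from the share of all genes. CycC was the member on which the replicates differed most in favour of replicate 1, with signals of 72.0 in replicate 1 (rank 2119) and 28.3 in replicate 2 (rank 23875). Its candidate lay 12 bp from the TSS of UQCR-C1, a mitochondrial complex III gene, and 38 bp from that of CycC.

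Among the Integrator genes that the rule found, the IDR summits lay at genes of the endonuclease and of the phosphatase arm. IntS11, the endonuclease itself (3R, 29745337 to 29747513, plus strand), had signals of 47.8 in replicate 1 (rank 4735), 144 in replicate 2 (rank 2083) and 196 in the pooled list (rank 2336), 150 bp upstream of its TSS and 95 bp from that of Wdr24, a GATOR2 subunit gene. IntS9, its inactive partner (3L, 16103432 to 16105627, minus strand), had signals of 64.8 in replicate 1 (rank 2619), 146 in replicate 2 (rank 2045) and 216 in the pooled list (rank 1917), 136 bp upstream of its TSS and 89 bp from that of CG43295. IntS4, which holds the pair together, had a pooled candidate of signal 106 (rank 6798). An IDR summit was thus found at 2 of these 3 genes (66.7%, interval 9.43 to 99.2%), against 20.5% of all protein-coding genes. Both summits lay nearer to the neighbour's TSS, and neither gene kept one when each summit counted only for the nearest TSS.

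Both phosphatase-linked genes had an IDR summit (2 of 2, interval 15.8 to 100%, against 20.5% of all protein-coding genes). They were the members whose IDR summit had no other gene's TSS within 500 bp. IntS6 (X, 5738663 to 5747254, minus strand) had signals of 105 in replicate 1 (rank 924), 131 in replicate 2 (rank 2536) and 205 in the pooled list (rank 2122), 89 bp downstream of a TSS. The replicate 2 value is from a candidate 368 bp upstream, towards Rtel1, which starts 493 bp away on the other strand; the replicate 2 candidate nearest to the IDR summit, 144 bp downstream, had a signal of 104 (rank 3817). IntS8, the subunit that recruits PP2A together with IntS6 (2R, 16850437 to 16854104, plus strand), had signals of 51.8 in replicate 1 (rank 4107), 118 in replicate 2 (rank 3037) and 166 in the pooled list (rank 3212), 20 bp upstream of its TSS. None of the other 6 Integrator genes had an IDR summit, an interval of 0 to 45.9% that includes the 20.5% of all protein-coding genes. IntS10 had a pooled candidate of signal 128, IntS12 of 61.3, IntS1 of 59.5 and IntS14 of 50.5, and IntS2 and IntS3 had none in the window. Among subunits outside the rule, omd (IntS5) had an IDR summit of signal 349 at 457 bp downstream of its TSS, while asun (IntS13), defl (IntS7) and ix (MED29) had pooled candidates of 118, 103 and 51.5.

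Most member summits were shared with a neighbouring gene. The strongest IDR summit lay within 500 bp of another gene's TSS at 12 of 14 members, for 11 of them a protein-coding gene. It was nearer to another gene's TSS at 7 (MED4, MED9, MED25, MED27, MED30, IntS9 and IntS11). At MED9 the nearer gene was CG42518, which lies on the same strand and also shares the MED9 TSS. Over all 2857 protein-coding genes with an IDR summit, the strongest was shared at 51.4%, shared with a protein-coding gene at 48.1% and nearer to another gene at 24.2%. The members' 14 strongest summits lay upstream of the member's TSS at 11 genes and within 100 bp of it at 9. These positions were not counted over all protein-coding genes. Among the 18 members with pooled candidates only, the strongest candidate was shared at 11 and nearer to another gene at 6, against 39.7% and 18.0% of the 4864 protein-coding genes of that kind. A peak between 2 divergent start sites cannot be assigned to either gene from its position. When each summit was counted only for the gene of the nearest TSS, 6 Mediator (20.7%) and 2 Integrator genes (18.2%) kept an IDR summit. The share of all protein-coding genes was then 15.9%, so both complexes were closer to it than under the main rule.

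**Figure D3:**
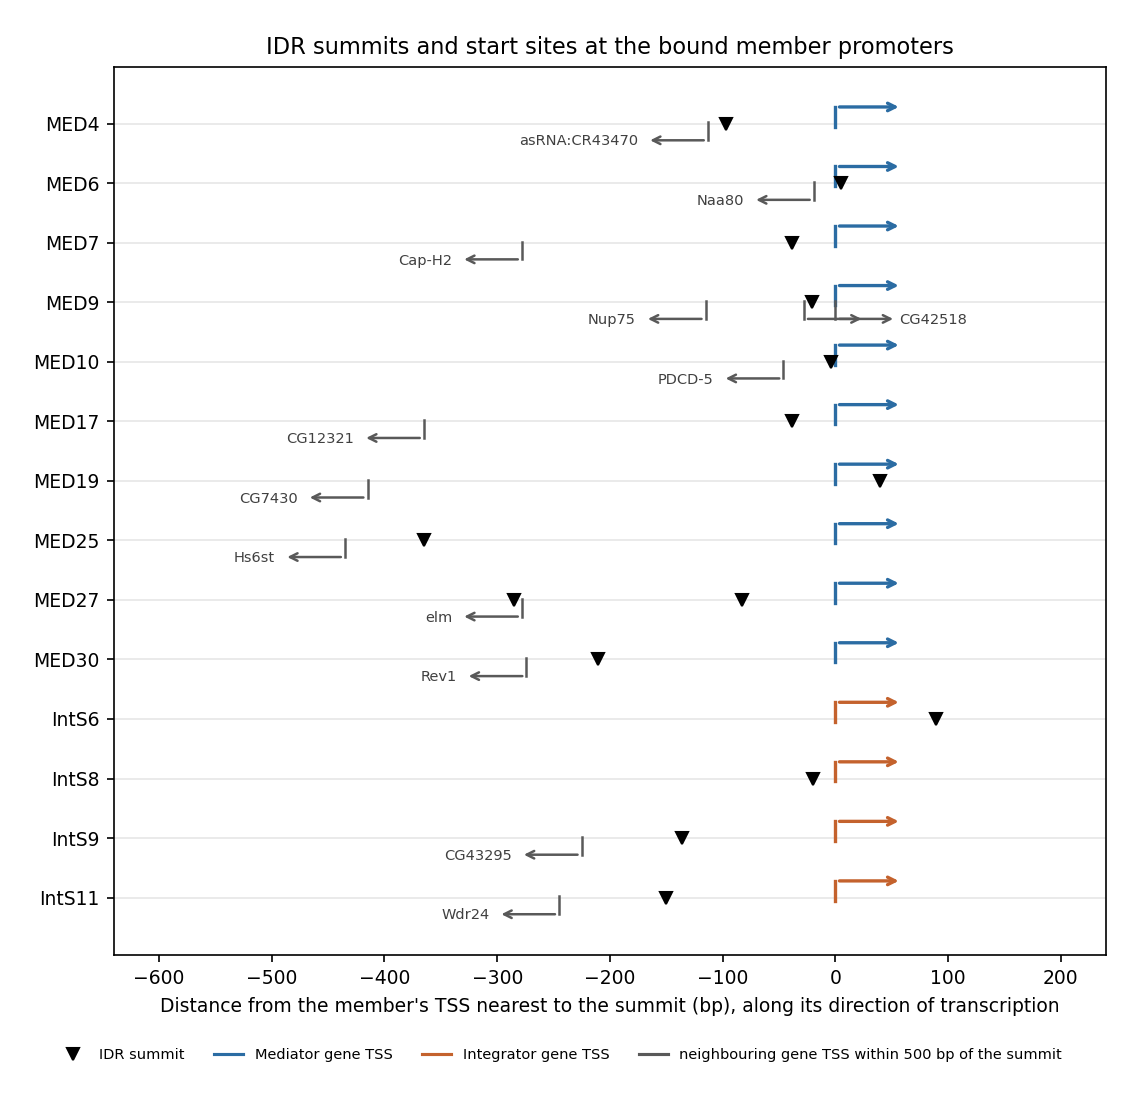
Position of IDR summits (triangles) at the 14 members, in bp from the member's TSS nearest to the strongest summit and along its direction of transcription, with arrows for the start and direction of the member (blue, Mediator; orange, Integrator) and of neighbouring genes (grey). Neighbours on the other strand point to the left at 12 members, and at 7 the summit is nearer to another gene's TSS than to the member's.

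Most of the 14 members with an IDR summit had candidates of high rank in both replicates. The IDR list was made from these same 2 replicates, so such ranks are in part fixed by the choice of members. The same counts were not made over all protein-coding genes with an IDR summit. All 14 had a replicate 2 candidate among its first 4410, the length of the IDR list, and 11 had one in replicate 1, with MED7, MED9 and IntS11 below it. The rank was higher in replicate 2 for 9 of the 14 members and higher in replicate 1 for MED6, MED10, MED19, MED27 and IntS6. Of the 18 members with pooled candidates only, 14 had a candidate in both replicates, of which 11 ranked higher in replicate 2 and MED1, CycC and skd in replicate 1. MED20, MED24, IntS1 and IntS12 had none in replicate 1. Among the first 4410 of replicate 2 alone, 12 Mediator (41.4%) and 5 Integrator genes (45.5%) had a summit, against 20.6% of all protein-coding genes. This added Cdk8, MED31 and IntS10. Among the first 4410 of replicate 1 alone it was 10 (34.5%) and 3 (27.3%), against 19.7% of all protein-coding genes. This added CycC and skd and left out MED7, MED9 and IntS11.

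**Figure D4:**
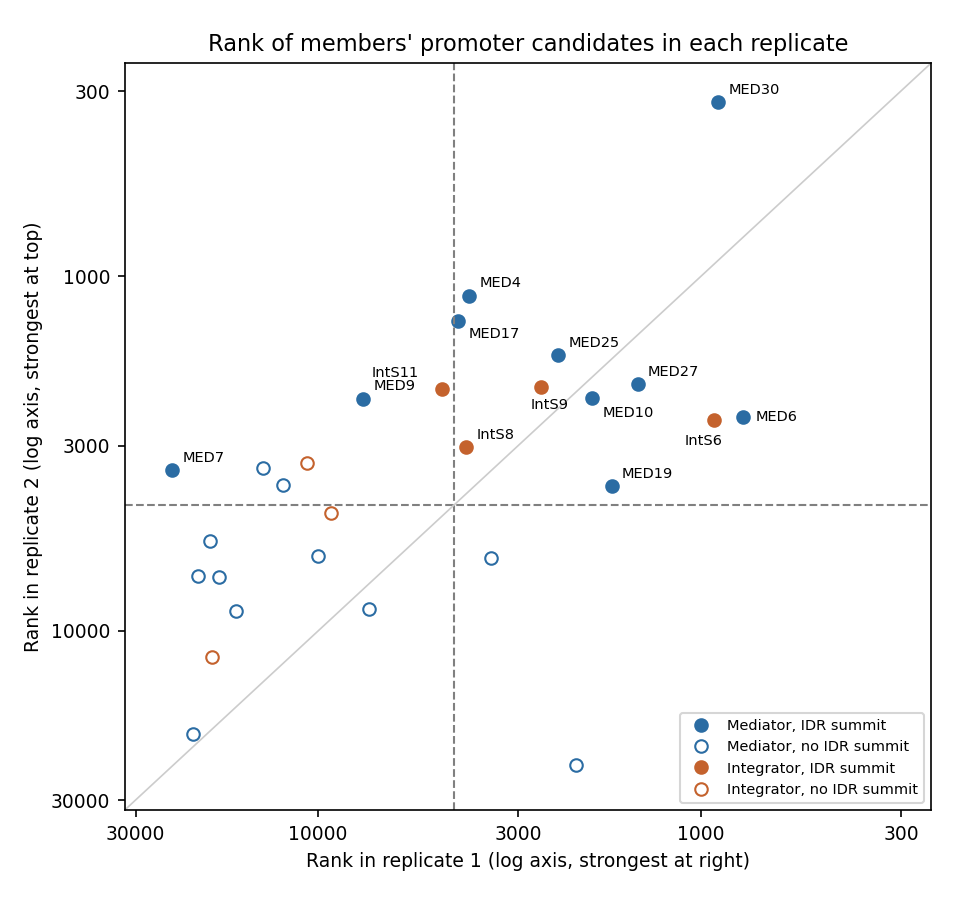
Rank of the strongest candidate within 500 bp of a TSS in replicate 1 (horizontal) and replicate 2 (vertical), both on log axes with the strongest at the right and top, for the members with a candidate in both replicates; filled points have an IDR summit, dashed lines mark rank 4410 and the diagonal marks equal ranks. All 14 filled points lie above the horizontal dashed line, and 11 lie to the right of the vertical one. The filled points were chosen through a list made from both replicates.

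Of the 8 members with no pooled candidate in the window, some had one close by and others lay far from any. The nearest candidate was 605 bp from a TSS at MED14, 614 bp at IntS2, 651 bp at MED8 and 677 bp at MED11. It was 2417 bp away at MED22 and 18633 bp away at MED26, the only member on chromosome 4. At IntS3 and MED21 the nearest candidate was 1418807 bp and 2220776 bp away. Within that distance no pooled candidate was listed at all, so the lack of a summit is not particular to these 2 promoters. Both genes stay in the shares above. MED11, MED14 and IntS2 had a replicate 1 candidate in the window, and no member of the 8 had one in replicate 2.

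Summits outside the 500 bp window lay near several members. The nearest IDR summit to MED15 was 539 bp upstream of its TSS, in intergenic sequence, with a signal of 359 (rank 641). The nearest to skd was 569 bp upstream, in the 5′ UTR of Pdss2, with a signal of 220.1 (rank 1846). Both would have counted within 1000 bp, where 12 Mediator genes (41.4%) and 4 Integrator genes (36.4%) had an IDR summit. The share of all protein-coding genes in that window was 23.5%. Of the IDR summits within 10 kb of a member's TSS, the strongest, with a signal of 11449.8 (rank 2), lay 8280 bp downstream of the MED15 TSS in an intron of ush. Within the annotated member genes and outside the windows there was 1 IDR summit, in skd, and 24 pooled candidates, of which 13 were in skd, the Med13 gene. The longest of the member genes is skd (3L, 20992814 to 21027434, minus strand). These counts were not set against gene length and were not made over all protein-coding genes.

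Other genes of pausing and elongation had summits at similar rates. In a list of 21 such partners, 7 had an IDR summit (33.3%) and 19 a pooled candidate, against 20.5% and 55.4% of all protein-coding genes. The 7 were Nelf-A (405), Nelf-E (1225) and TH1 (217), which encode subunits of the pausing factor NELF; CycT (230.4), the cyclin of P-TEFb; Mat1 (151), of the CDK-activating kinase; fs(1)h (293), a BET protein; and mts (644), the catalytic subunit of PP2A, with signals in parentheses. Of 11 RNA polymerase II subunit genes matched by synonym, 4 had an IDR summit, Polr2F (331), Polr2B (269), Polr2H (212) and Polr2J (186), and 8 had a pooled candidate. The 11 polymerase genes, the 21 pausing and elongation partners and the members thus had IDR summits at between 33.3% and 36.4% of genes. Each list is small, with wide counting error. No interval was computed for the 11 or the 21 genes, and their divergent neighbours were not counted.

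Within 50 bp, no searched word was present at more than 4 member IDR summits. Of the 15 distinct member IDR summits, 9 held at least 1 of the 8 words within 50 bp of the summit, on either strand, as did 2274 of all 4410. CGATA, the core read by BEAF-32 and contained in TATCGATA, was present in 4 of 15 (MED7, MED17, MED25 and IntS8), against 20.2% of all IDR summits, 25.1% of those within 500 bp of a TSS and 25.8% of windows of the same length centred on the first TSS of protein-coding genes. TAATTA was present in 3 of 15 (MED19, MED27 and IntS11), against 4.76%, 4.38% and 2.88% over the same sets. GAGAG was in 3 (MED4, MED25 and MED30; 16.0%, 15.8% and 11.5%) and TATAAA in 2 (MED17 and MED25; 11.2%, 10.4% and 17.0%). TATCGATA at MED17 (2.79%, 4.80% and 5.56%), GGTCACACT at MED19 (2.11%, 3.59% and 4.37%) and the E-box CAGCTG at MED25 (7.19%, 8.95% and 9.34%) were each found once, and the E-box CACGTG (3.22%, 2.85% and 1.98%) in none. With 15 summits each match moves a share by several percentage points, and a match describes the letters, not a factor's binding.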

How the data were processed

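Coordinates are on dm6, per the labels. The deposited readme texts say that candidate lists come from each replicate and from the pool of both, with 1 control library throughout, and that the IDR list comes from those lists. The sources used here name no aligner, peak caller or IDR threshold. Each deposited peak has a signal value, used to rank peaks, and a −log10 q-value from the authors, which is tied in all 4410 IDR peaks and was not used. Chromatin was sonicated to a size range of 200 to 800, per the labels.

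Summits were set against Ensembl 115 (BDGP 6.54, without transposable elements) and RefSeq sequence. 1 replicate 1 candidate outside the 6 arms was left out. Every member is named, and sequences were chosen by motif content and then signal. The members and lists were chosen with earlier results of these data known. RpII215 could not be matched to a single gene and was left out. The promoter window count and a word search were tested on made-up data with planted summits and words. The other steps were not tested in that way. Alternatives changed the window, the TSS rule, the peak overlap, the threshold, the replicate and the motif window. Python 3.11.15, numpy 2.4.6, pandas 2.3.3 and scipy 1.17.1 were used.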

Additional observations from a re-analysis of the deposited data

How the results depend on the processing

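Of 32 alternative counts of members with a summit, 28 stayed within 1.5 times the reported count. The 4 that moved were all IDR counts. The pooled candidate counts, 23 of 29 and 9 of 11 genes, could not have risen by that factor within their sets. When a summit counted only for the gene of the nearest TSS, 6 Mediator (20.7%) and 2 Integrator genes (18.2%) had an IDR summit, against 15.9% of all protein-coding genes. With the IDR list limited to peaks above its median signal the counts were also 6 and 2, against 10.9% of all protein-coding genes. To leave out 1 replicate, the first 4410 candidates of the other took the place of the IDR list, which was not rebuilt. Counts then ran between 10 and 12 for Mediator and between 3 and 5 for Integrator. With the full candidate list of 1 replicate in place of the pooled list, counts were 23 for Mediator in both cases. For Integrator they were between 8 and 9. Searching 100 bp instead of 50 bp to either side of the summit moved 4 of 8 word counts (TATCGATA to 2, GGTCACACT to 2, CAGCTG to 3 and TAATTA to 5 of 15). In the same order, the shares of all IDR summits at that width were 5.01%, 3.20%, 13.2% and 10.9%. Over IDR summits within 500 bp of a TSS they were 8.36%, 5.47%, 15.8% and 11.0%. The wider window holds more letters by construction. Read depth was not available from the peak lists, so a missing summit cannot be told apart from one too weak to be listed. No paired analysis was possible because there is 1 group.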
